A study of Oryctolagus cuniculus with 9 samples.

Results

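Macrophage genes were examined in rabbit ligamentum flavum, the elastic ligament that joins the laminae of neighbouring vertebrae, through 5 genes: LYZ, CD68, CD163, CSF1R and MRC1. They were chosen by name, as 5 of the 23407 named gene rows of the deposited tables, and all 5 passed the filter on low values in every comparison. RNA was sequenced from ligament of male rabbits of the New Zealand white strain, taken at an age of 70 weeks. Operations had been done at 18 weeks, per the labels: muscle was resected at L3-4, and L2-3 and L4-5 were fused posterolaterally with instrumentation. The groups were the intervertebral stress concentration level (ISC, 3 libraries), the fused level (Fused, 3 libraries) and sham operation (Control, 3 libraries). Whether libraries came from separate animals, or from pooled tissue, is not in the labels, so p-values reflect only how these libraries vary. By its title, the series asks how mechanical stress over a long term changes gene expression in this ligament.

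Libraries held between 1233155 and 1869209 reads, and a count of 3 reads was worth a scaled value of 2.40 to 3.58. All 10 genes of a fibroblast list, which marks the main cell of ligament, were read. The beta-globin row HBB2 took between 0.421% and 5.00% of reads in ISC libraries, between 1.55% and 6.41% in Fused libraries and between 0.0963% and 0.248% in Control libraries. ISC replicate 2 (5.00%) and Fused replicates 2 and 3 (5.64% and 6.41%) stood apart as rich in haemoglobin RNA, and the counts and correlations they bear on most are given with and without them. In such bulk tissue a lower number of cells of a type and less RNA per cell cannot be told apart.

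Macrophages are phagocytes that live in most connective tissues, where they clear debris and dying cells, and more can enter from the blood as monocytes. Their survival depends on CSF1R, a receptor tyrosine kinase of the cell surface whose ligands are CSF1 and IL34. In humans, macrophages have been described in thickened ligamentum flavum. The 5 genes differ in how far they are limited to macrophages: CSF1R and CD163 are largely genes of monocytes and macrophages, while LYZ, a lysozyme that breaks bacterial cell walls, is also a product of neutrophils. MRC1, the mannose receptor, is also made by lymphatic and sinusoidal endothelium.

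On the oryCun2 assembly, as the deposited tables give positions, CSF1R lay on chromosome 3 between 31834455 and 31858288 with 18 exons, and MRC1 on chromosome 16 between 43399919 and 43512815 with 30 exons. CD163 lay on chromosome 8 between 33364820 and 33390024 with 16 exons, and CD68 on chromosome 19 between 11598423 and 11600560 with 6 exons. All 4 were on the minus strand. LYZ was a row under a locus identifier, placed on an unassigned scaffold between 851 and 1593 on the plus strand as 1 exon. Its symbol was looked up by gene identifier in RefSeq's gene table for mOryCun1.1, a later rabbit assembly, which was used for names only. Reads of near-identical lysozyme genes may be assigned to it or away from it, which the files cannot show.

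Divided by exon length, the 5 genes averaged between 7.68 and 22.1 per kilobase in Control ligament, and LYZ averaged above the others in the operated levels. Per kilobase, CSF1R had a mean scaled read count of 41.5 in ISC, 30.3 in Fused and 22.1 in Control libraries. CD68, a glycoprotein of lysosomes, had 19.0 per kilobase in ISC, 20.8 in Fused and 20.2 in Control libraries. LYZ had 169 per kilobase in ISC, 459 in Fused and 18 in Control libraries. MRC1 and CD163 stood lowest in every group. MRC1 had 17.9 per kilobase in ISC, 9.69 in Fused and 10.7 in Control libraries. CD163 had 10.4 per kilobase in ISC, 9.80 in Fused and 7.68 in Control libraries. In Control the 3 highest, CSF1R, CD68 and LYZ, did not differ in level beyond their spread, whereas LYZ stood first in each Fused library.

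LYZ rose at the fused level and was the member with the widest change. Its scaled read count was 40.7, 280 and 56.2 in ISC replicates 1, 2 and 3, 132, 679 and 212 in the 3 Fused libraries, and 12.3, 8.78 and 19.1 in the 3 Control libraries. Values of a group are in the order of replicates 1, 2 and 3 throughout. Every ISC and every Fused library lay above every Control library, while ISC and Fused libraries overlapped. The Control values rest on 11 to 22 reads each, against 38 to 235 reads in ISC and 114 to 675 reads in Fused libraries. LYZ averaged 126 ± 134 in ISC, 341 ± 295 in Fused and 13.4 ± 5.27 in Control libraries (SD, n = 3 each).

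For Fused against Control the ratio of means was 25.5, and the log2 change of the scaled read count + 1 was 4.28 (SE 0.543). Its limma adjusted p was 0.0142, so that LYZ was called, at an adjusted p under 0.05, among 14686 genes tested. It was the 1 member of 5 called there, beside 6.58% of all genes tested, and the 1 of 5 whose groups did not overlap, beside 29.3% of all genes. Without Fused replicate 3, Control replicate 1 or Control replicate 2 the call was lost (limma adjusted p = 0.0561, 0.0524 and 0.0912), with log2 changes of 4.45, 4.26 and 4.04. Without the haemoglobin-rich libraries, Fused replicate 1 stood alone against Control and was assumed to vary like it. The log2 change was then 3.28 and the limma adjusted p 0.0952.

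For ISC against Control the ratio of LYZ means was 9.39 and the log2 change 2.67 (SE 0.680, 95% interval 1.10 to 4.24). It did not pass the test over 14348 genes (limma adjusted p = 0.314). In this comparison limma called 0 of 5 members, beside 0.0488% of all genes tested. LYZ was the only member with an unadjusted p under 0.05. Its limma unadjusted p was 0.00458. For the same comparison edgeR called 0 members and DESeq2 called LYZ, with an adjusted p of 0.00207. Its groups were the only 1 of 5 not to overlap, beside 18.3% of all genes. Without ISC replicate 2, the haemoglobin-rich library of that group, the log2 change was 1.83. In the authors' deposited table LYZ was called against Control at both levels, with a q-value of 0.00150 for ISC and 1.31e-06 for Fused.

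Between the operated levels LYZ had a log2 change of -1.62 for ISC against Fused (SE 0.813, 95% interval -3.51 to 0.28, limma adjusted p = 0.573). The ratio of means was 0.369, and the interval leaves room for a fall as well as for no change. Without ISC replicate 2 the log2 change was -2.46, and without Fused replicate 2 it was -0.94. Here limma called 0 of 5 members, beside 0.279% of 15404 genes tested, and none had an unadjusted p under 0.05. Both edgeR and DESeq2 also called 0. No member's groups were apart between ISC and Fused, beside 15.4% of all genes.

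**Figure D1:**
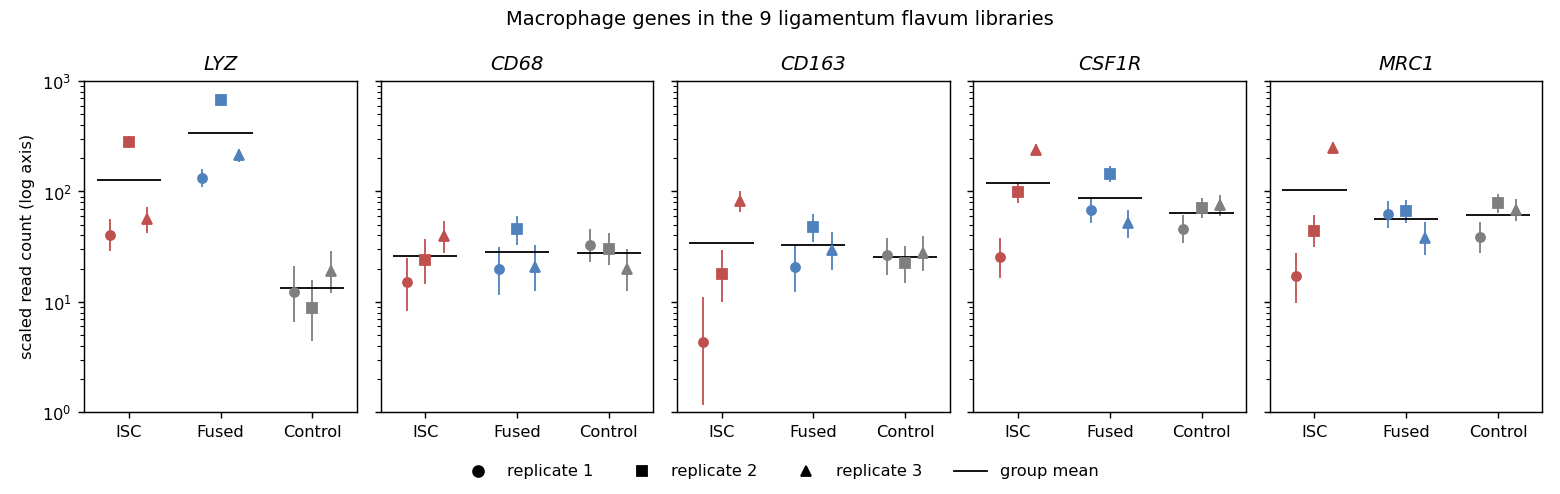
Scaled read count of LYZ, CD68, CD163, CSF1R and MRC1 in each library (log axis), by group, with replicates 1, 2 and 3 as circles, squares and triangles; vertical bars are 95% Poisson intervals of the reads and horizontal lines are group means. The LYZ points of ISC and Fused lie above the Control points, and the ISC points of CD163, CSF1R and MRC1 are spread widely around the Control points.

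CD68 did not pass the test in any comparison. It had 15.0, 23.9 and 39.1 in ISC replicates 1, 2 and 3, 19.7, 45.3 and 20.8 in the 3 Fused libraries, and 33.0, 30.3 and 20.0 in the 3 Control libraries. All 3 groups overlapped, with the highest value in Fused replicate 2 and the lowest in ISC replicate 1. Its log2 change against Control was -0.16 for ISC (95% interval -1.07 to 0.74) and -0.03 for Fused (95% interval -0.88 to 0.81). Changes within these bounds cannot be told from none with these libraries.

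CD163, a scavenger receptor that takes up haemoglobin bound to haptoglobin, differed more within the ISC group than between groups. It had 4.29, 17.9 and 81.3 in ISC replicates 1, 2 and 3, 20.9, 47.3 and 29.5 in the 3 Fused libraries, and 26.4, 22.4 and 27.8 in the 3 Control libraries. The highest and the lowest of the 9 libraries were both ISC libraries, 18.9-fold apart, whereas the Control libraries were 1.24-fold apart. The value of ISC replicate 1 rests on 4 reads, with a 95% Poisson interval of 1.17 to 11, and lay below the interval of replicate 3. The log2 change was -0.39 for ISC against Control (95% interval -2.38 to 1.6, limma adjusted p = 0.887), although the ISC mean, 34.5 ± 41.1, was above the Control mean, 25.5 ± 2.84 (SD, n = 3 each). For Fused against Control it was 0.27 (95% interval -0.47 to 1.0, limma adjusted p = 0.681).

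CSF1R, the growth factor receptor, followed a like order of the ISC libraries. It had 25.7, 99.1 and 237 in ISC replicates 1, 2 and 3, 68.5, 144 and 51.4 in the 3 Fused libraries, and 46.2, 71.1 and 74.8 in the 3 Control libraries. ISC replicate 3 was the highest and ISC replicate 1 the lowest of the 9 libraries, and the groups overlapped. The log2 change was 0.43 for ISC against Control (95% interval -1.17 to 2.04, limma adjusted p = 0.834). For Fused against Control it was 0.34 (95% interval -0.49 to 1.18, limma adjusted p = 0.637).

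MRC1, an endocytic receptor for sugars ending in mannose, was also highest in a single ISC library. It had 17.2, 44.2 and 249 in ISC replicates 1, 2 and 3, 62.7, 66.4 and 38.3 in the 3 Fused libraries, and 38.7, 78.3 and 67.8 in the 3 Control libraries. ISC replicate 3 again stood first and ISC replicate 1 last, 14.5-fold apart, and the groups overlapped. The log2 change was -0.03 for ISC against Control (95% interval -1.97 to 1.92, limma adjusted p = 0.992). For Fused against Control it was -0.12 (95% interval -0.84 to 0.60, limma adjusted p = 0.866).

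The ISC values of CD163, CSF1R and MRC1 depended on single libraries. Without ISC replicate 3, the log2 change of ISC against Control was -1.40 for CD163 (limma adjusted p = 0.424), -0.30 for CSF1R (limma adjusted p = 0.861) and -1.07 for MRC1 (limma adjusted p = 0.446). Without ISC replicate 1 the same changes were 0.58, 1.28 and 0.82, and none was called. In ISC against Fused, CD163 had a log2 change of -0.66, CSF1R of 0.09, MRC1 of 0.09 and CD68 of -0.13, with limma adjusted p between 0.850 and 0.981. In the authors' deposited tables CD68, CD163, CSF1R and MRC1 were called in none of the 3 pairs of groups.

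**Figure D2:**
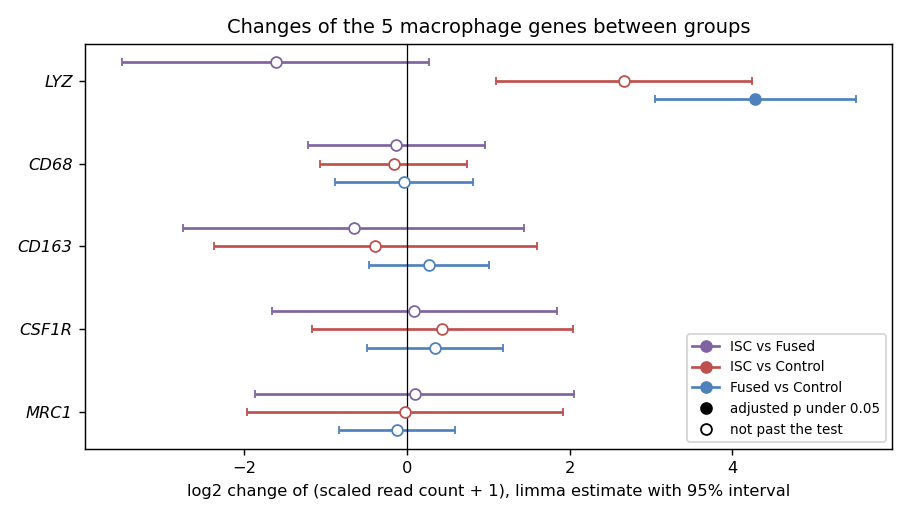
log2 change of the scaled read count + 1 of each macrophage gene in ISC against Fused, ISC against Control and Fused against Control, as limma estimates with 95% intervals; a filled point has an adjusted p under 0.05. The only filled point is LYZ in Fused against Control, at 4.28, and every interval of CD68, CD163, CSF1R and MRC1 spans 0.

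Among 7 ratios between members within a library, groups stood apart in those with LYZ only. The ratio of LYZ to CD68 was 2.71, 11.8 and 1.44 in ISC replicates 1, 2 and 3, 6.71, 15.0 and 10.2 in the 3 Fused libraries, and 0.371, 0.289 and 0.957 in the 3 Control libraries. Both operated groups were apart from Control. An exact two-sided permutation test of the log2 ratio gave p = 0.1 for ISC and for Fused against Control, the smallest p that 3 libraries against 3 can give. The ratio of LYZ to CSF1R was 1.58, 2.83 and 0.237 in ISC replicates 1, 2 and 3, 1.93, 4.72 and 4.13 in the 3 Fused libraries, and 0.265, 0.124 and 0.256 in the 3 Control libraries. Here Fused was apart from Control and ISC was not, because ISC replicate 3 lay within the Control range.

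The ratio of MRC1 to CSF1R, by contrast, lay between 0.446 and 1.05 in ISC, between 0.462 and 0.915 in Fused and between 0.837 and 1.10 in Control libraries. That of CD163 to CSF1R lay between 0.167 and 0.343 in ISC, between 0.305 and 0.574 in Fused and between 0.315 and 0.571 in Control libraries. Groups overlapped in both ratios. These were 21 tests over 7 ratios, and none could fall below 0.1, so none can pass an adjustment.

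**Figure D3:**
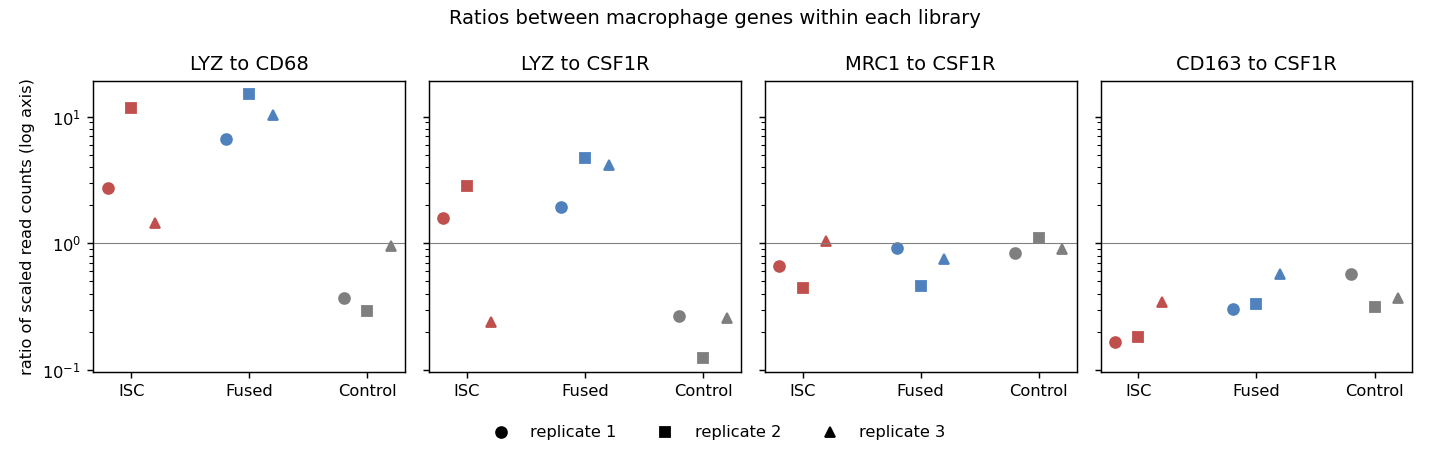
Ratio between the scaled read counts of 2 macrophage genes in each library (log axis), for LYZ to CD68, LYZ to CSF1R, MRC1 to CSF1R and CD163 to CSF1R, by group with replicates as circles, squares and triangles. The LYZ to CD68 ratio is above 1 in all ISC and Fused libraries and below 1 in all Control libraries, and the MRC1 to CSF1R and CD163 to CSF1R ratios overlap between groups.

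Across the 9 libraries, the log2 values of LYZ correlated less with the other 4 members than those did with one another. Such correlations describe points that share a library, its depth, its scaling and its group, and carry no p. LYZ correlated with CD68, CD163, CSF1R and MRC1 with Pearson's r between -0.03 and 0.34. CSF1R and MRC1 had r = 0.89 (Spearman's rho = 0.78), CD163 and MRC1 r = 0.85 (rho = 0.52), and CD163 and CSF1R r = 0.85 (rho = 0.57). These rest in part on single libraries: without the 2 libraries farthest from the median of the first gene of each pair, r was 0.49, 0.14 and 0.36 in the same order. CD68 correlated with CSF1R with r = 0.73, which became 0.40 without 2 libraries. For LYZ and CSF1R r was 0.20 without 2 libraries, above the 0.14 of CD163 and MRC1. Without ISC replicate 3, LYZ and CSF1R had r = 0.51, against 0.54 for CD68 and MRC1. The division between LYZ and the others was then less clear.

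Among 9645 other named genes with a median value of 10 or more, those most like LYZ were SPN, a sialoglycoprotein of white blood cells (r = 0.99), PREX1, an activator of Rac proteins (r = 0.98), CTSE, an aspartic protease (r = 0.98), RAC2, a GTPase of blood cells (r = 0.98), and CHIT1, a chitinase (r = 0.98). Most like CSF1R were GLIPR2 (r = 0.97), C1QC, a chain of complement C1q (r = 0.96), and PHC2, a Polycomb protein (r = 0.95), followed by KIAA0100 and VMP1 (both r = 0.95). C1QC was also among the 5 genes most like CD163 (r = 0.91, rho = 0.53), with C6H16orf72 (r = 0.93), SLC9A9, a proton exchanger of endosomes (r = 0.93), PDE6D (r = 0.91) and BTF3L4 (r = 0.90). MRC1 was most like TAGLN2 (r = 0.98), DLST, an enzyme of the citric acid cycle (r = 0.96), IFRD1 (r = 0.94), PHC2 and PAFAH1B1 (both r = 0.93). Among the genes most like CD68 were UBE2F (r = 0.91), COQ3 (r = 0.90), beta-actin ACTB (r = 0.89) and SGPL1 (r = 0.88). Without the 2 libraries farthest from the member's median, r lay between 0.97 and 0.98 for the 5 genes of LYZ and between 0.45 and 0.68 for those of CD163.

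C1QC shows what the pattern of CSF1R looked like in another gene. Its scaled read count was 26.8, 88.3 and 231 in ISC replicates 1, 2 and 3, 89.4, 151 and 77.6 in the 3 Fused libraries, and 55.6, 110 and 87.0 in the 3 Control libraries. CHIT1 shows the LYZ pattern, with 13.9, 201 and 18.1 in ISC replicates 1, 2 and 3, 25.5, 277 and 149 in the 3 Fused libraries, and 1.89, 1.6 and 2.61 in the 3 Control libraries. ISC replicate 2 was the highest ISC library for LYZ and CHIT1, and ISC replicate 3 for CSF1R and C1QC.

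Neither ligand of CSF1R passed the test in any comparison. CSF1 had 63.3, 71.6 and 184 in ISC replicates 1, 2 and 3, 80.1, 116 and 68.9 in the 3 Fused libraries, and 88.6, 107 and 91.3 in the 3 Control libraries. IL34 had 49.3, 35.8 and 72.2 in ISC replicates 1, 2 and 3, 45.3, 55.3 and 43.7 in the 3 Fused libraries, and 48.1, 43.1 and 40.0 in the 3 Control libraries. Both were highest in ISC replicate 3, the library with the highest CSF1R, and all groups overlapped. In Fused against Control the log2 change of CSF1 was -0.14 (limma adjusted p = 0.749). Of the list of ligands and growth factors, limma called 0 of 3 tested genes in Fused against Control, none had an unadjusted p under 0.05 there, and edgeR and DESeq2 also called 0.

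Transcription factors of myeloid cells moved in part at the fused level. There limma called 3 of 13 tested genes higher and none lower, beside 3.98% and 2.60% of all genes. DESeq2 called 4 higher and 1 lower. The list median log2 change was 0.36, against 0.02 over all genes, and 8 of 13 changes were positive. Groups were apart upward for 4 genes and downward for 3, beside 29.3% of all genes in either direction. SPI1, the master factor of myeloid development, had 6.43, 26.3 and 12 in ISC replicates 1, 2 and 3, 11.6, 50.3 and 33.9 in the 3 Fused libraries, and 0.943, 0.799 and 5.22 in the 3 Control libraries. Both operated groups lay above Control, and the log2 change was 3.34 for Fused (limma adjusted p = 0.0276) and 2.31 for ISC (limma adjusted p = 0.333). Control values of SPI1 under that of 3 reads in replicates 1 and 2 make these fitted changes depend on the pseudocount of 1. IRF5, a factor of inflammatory gene activation, and TFEC rose at the fused level by log2 changes of 2.61 and 2.28 (limma adjusted p = 0.0217 and 0.0455). Control values of TFEC were 1.89, 2.40 and 1.74, at or below that of 3 reads, so its change also depends on the pseudocount.

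Receptors and adaptors that macrophages share with neutrophils and other white cells rose together at the fused level. There limma called 17 of 23 tested genes higher, beside 3.98% of all genes, and none lower. The list median was 2.53 and 22 of 23 changes were positive. ITGB2, the beta chain of the integrins of white cells, had 25.7, 497 and 121 in ISC replicates 1, 2 and 3, 117, 637 and 425 in the 3 Fused libraries, and 18.9, 20.8 and 14.8 in the 3 Control libraries. CORO1A, an actin regulator of white cells, and ITGAM, the alpha chain paired with ITGB2, had log2 changes of 4.17 and 4.11 in Fused against Control (limma adjusted p = 0.0169 each), and ITGB2 of 4.07 (limma adjusted p = 0.0142). In ISC against Control the list median was 1.69 and none was called by limma. Leaving out single libraries also shifted the number called over all genes strongly (range in the closing section), here and for the lists below. The count of 17 became 18 without Fused replicate 1, 1 without Fused replicate 2 and 12 without Control replicate 3. It was 0 without Fused replicate 3, Control replicate 1 or Control replicate 2. It was also 0 without the haemoglobin-rich libraries.

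The list of scavenger and endocytic receptors, the class of CD163 and MRC1, went both ways in Fused against Control. It also holds genes that are not receptors, among them F13A1 and HMOX1. Of its genes limma called 1 of 20 tested higher and 2 lower, beside 3.98% and 2.60% of all genes. The list median was -0.08. By edgeR 2 were higher and 3 lower, and by DESeq2 5 were higher and 4 lower. Groups were apart upward for 5 genes and downward for 5, beside 29.3% of all genes in either direction. The gene called higher was MSR1, a receptor for modified lipoproteins, with 1.07, 25.1 and 30.1 in ISC replicates 1, 2 and 3, 11.6, 38.2 and 9.84 in the 3 Fused libraries, and 1.89, 1.6 and 0.870 in the 3 Control libraries. Its log2 change for Fused was 2.86 (limma adjusted p = 0.0265), from Control values under that of 3 reads in each library, so that it depends on the pseudocount. The genes called lower were F13A1, the A chain of coagulation factor XIII and not a receptor, with a log2 change of -3.27 (limma adjusted p = 0.0154), and AXL, a receptor for dying cells, with -1.79 (limma adjusted p = 0.0172). F13A1 had 2215, 726 and 234 in ISC replicates 1, 2 and 3, 360, 319 and 104 in the 3 Fused libraries, and 2617, 2724 and 1523 in the 3 Control libraries. The Fused libraries lay below every Control library for F13A1, whereas ISC replicate 1 lay within the Control range. These 3 calls were lost without the haemoglobin-rich libraries and without Fused replicate 2, Fused replicate 3, Control replicate 1 or Control replicate 2, and the MSR1 call also without Control replicate 3. Without Fused replicate 1, limma called 3 genes of the list higher and 6 lower.

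Lysosomal genes, the class of CD68, had a positive log2 change in 5 of 24 genes in Fused against Control, with a list median of -0.37. Of the 24, limma called 1, which is near the 2.60% of all genes called lower. The gene called by limma was LGMN, a protease of lysosomes, with 404, 366 and 576 in ISC replicates 1, 2 and 3, 238, 226 and 204 in the 3 Fused libraries, and 345, 466 and 387 in the 3 Control libraries. Its log2 change in Fused against Control was -0.83 (limma adjusted p = 0.0262). In the same list edgeR called 1 gene and DESeq2 5, all lower, and without Fused replicate 1 limma called 5 lower and 1 higher. No gene of the list was called without the haemoglobin-rich libraries, Fused replicate 2, Fused replicate 3 or any 1 of the Control replicates. With median centring, which moved the median of all genes to -0.08, 5 lysosomal genes were called lower. In ISC against Control the list median was 0.07 and limma called none. The fibroblast list had 0 of 10 changes positive in Fused against Control, with a list median of -0.76. The part of fibroblasts in the lysosomal changes was not tested.

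Of the complement genes that macrophages express, 6 of 8 listed were read. In Fused against Control all 6 had a positive change, with a list median of 0.48. By limma 1 of the 6 was called higher, beside 3.98% of all genes. This was C5AR1, the receptor for complement fragment C5a, with a log2 change of 2.90 (limma adjusted p = 0.0378). Of the genes of antigen presentation, 7 of 18 listed were read, all 7 with a positive change, and the list median was 0.79. The 2 of 7 called higher, beside 3.98% of all genes, were the class II chain RLA-DR-ALPHA and its chaperone CD74. Their log2 changes were 3.03 and 3.00 (limma adjusted p = 0.0247 and 0.0259). Of the chemokines of monocytes and their receptors, 11 of 15 listed were read, 7 of them with a positive change, and the list median was 0.82. By limma 2 of the 11 were called higher, beside 3.98% of all genes. CXCL12, a chemokine that holds blood-forming and immune cells in tissue, had 124, 747 and 125 in ISC replicates 1, 2 and 3, 325, 1021 and 1150 in the 3 Fused libraries, and 111, 63.1 and 116 in the 3 Control libraries. Its log2 change in Fused against Control was 2.95 (limma adjusted p = 0.0169). CCR1, a chemokine receptor, had a log2 change of 4.23 in Fused against Control (limma adjusted p = 0.0180), with Control values of 0, 0 and 2.61, so that this change depends on the pseudocount.

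Of the genes of macrophage activation, limma called 6 of 18 tested higher at the fused level and none lower, beside 3.98% and 2.60% of all genes. The list median was 0.95 and 14 of 18 changes were positive. CHIT1 had a log2 change of 5.11 (limma adjusted p = 0.0164), the cytokine gene IL1B of 4.36 (limma adjusted p = 0.0196) and the protease gene CASP1 of 3.25 (limma adjusted p = 0.0184). IL1B had 3.22, 38.2 and 4.01 in ISC replicates 1, 2 and 3, 13.9, 66.4 and 40.5 in the 3 Fused libraries, and 3.77, 0 and 0 in the 3 Control libraries. The other called genes were CHI3L1, IL1RN and TLR4. CHIT1, IL1B and CASP1 were at or near the value of 3 reads, or below it, in each Control library, so that their fitted changes depend on the pseudocount as well. Without Fused replicate 2, Fused replicate 3, Control replicate 1 or Control replicate 2, or without the haemoglobin-rich libraries, limma called 0 genes of the complement, antigen presentation, chemokine, activation and transcription factor lists. Without Control replicate 3 it called 0 complement genes and 3 activation genes.

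In ISC against Control, limma and edgeR called 0 of 124 tested genes over these 9 lists, of which 21 were higher and 6 lower at an unadjusted p under 0.05, and DESeq2 called 13. Over all 14348 genes, 11.5% had an unadjusted p under 0.05 and DESeq2 called 1.59%. In ISC against Fused, 14 of 129 were higher and 8 lower at a limma unadjusted p under 0.05, beside 10.3% of all genes. There edgeR called 0 and DESeq2 6, beside 2.08% of all genes by DESeq2. The lysosomal list held 10 of those 14. Its groups were apart upward for 11 of 24 genes, beside 15.4% of all genes in either direction. The fibroblast list had 10 of 10 changes positive in ISC against Fused, with a list median of 1.30, and its part was not tested. By limma 1 of the 129 was called, beside 0.279% of all genes. This was PPARG, a lipid-sensing nuclear receptor of macrophages and of fat cells. PPARG had 20.4, 15.5 and 24.1 in ISC replicates 1, 2 and 3 and 88.3, 66.4 and 80.9 in the 3 Fused libraries, and its log2 change was -1.93 (limma adjusted p = 0.0441). Markers of fat cells were lower in the same comparison, with 5 of 8 tested called lower and a list median of -3.21, and their part in the PPARG result was not tested. That count of 5 was 0 without Fused replicate 2 or 3, 2 without ISC replicate 3, 3 without Fused replicate 1 or ISC replicate 1, and 0 without the haemoglobin-rich libraries. The PPARG call was lost when any 1 of the 6 libraries was left out.

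**Figure D4:**
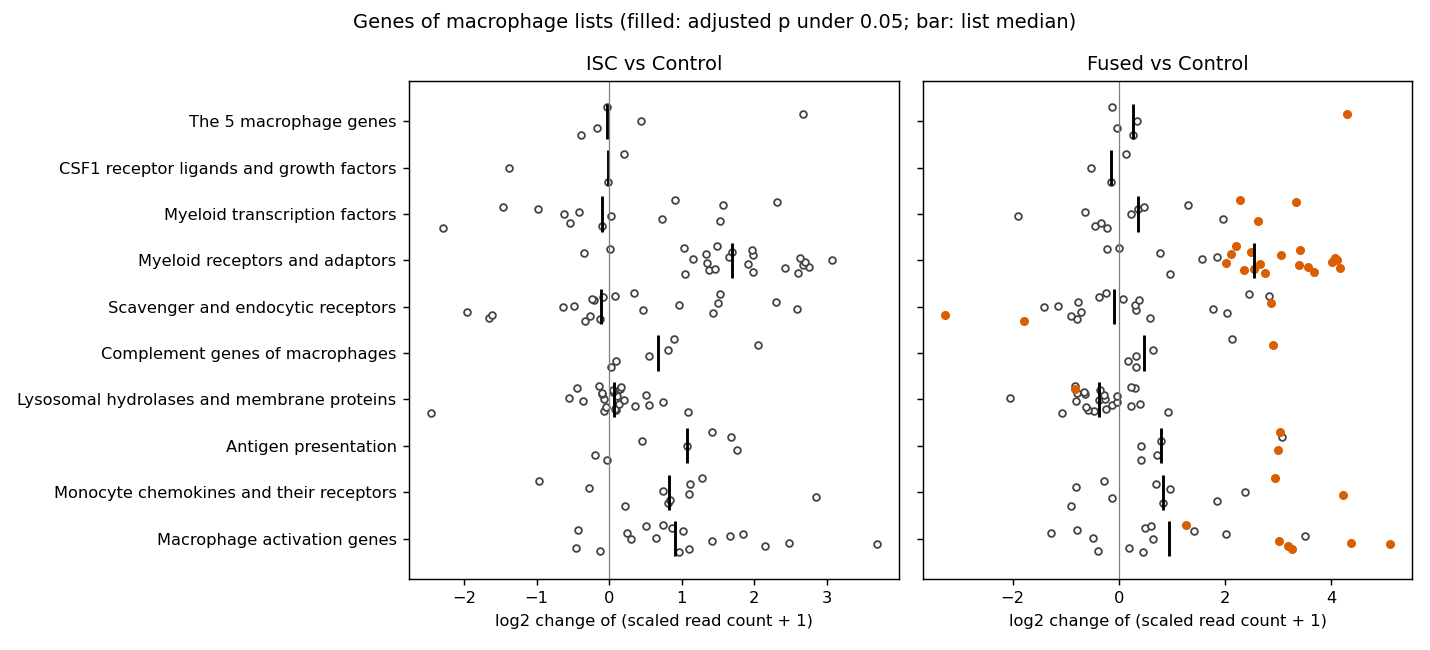
log2 change of the scaled read count + 1 of each tested gene, for the 5 macrophage genes and 9 macrophage gene lists, in ISC against Control (left) and Fused against Control (right); each point is a gene, filled points have an adjusted p under 0.05 and bars are list medians. The receptors and adaptors lie to the right in both panels, with medians of 1.69 and 2.53, while the scavenger receptor list has medians of -0.11 and -0.08 and the lysosomal list of 0.07 and -0.37.

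Markers of other blood and marrow cells moved with LYZ and with the receptors, adaptors and activation genes. Of the neutrophil list 13 of 16 genes were in the tables, none at 0 in all 9 libraries, and their summed value was 522 to 18409 in ISC, 2406 to 25720 in Fused and 104 to 357 in Control libraries. In Fused against Control limma called 12 of 13 tested neutrophil genes higher, beside 3.98% of all genes, with a list median of 5.5. Without the haemoglobin-rich libraries limma called 0 of 9 tested, with a list median of 3.43. The count was 9 without Fused replicate 1 or Control replicate 3 and 2 without Fused replicate 2. It was 0 without Fused replicate 3, Control replicate 1 or Control replicate 2, where the list median was still 5.10, 5.52 and 5.18. The libraries not rich in haemoglobin RNA had neutrophil sums of 1083 and 522 in ISC replicates 1 and 3 and of 2406 in Fused replicate 1, also above the Control sums. Of the erythroid list 14 of 19 genes were in the tables, and their summed value was 7669 to 100154 in ISC, 23948 to 114085 in Fused and 1720 to 4170 in Control libraries. Of the lymphocyte and plasma cell list 16 of 18 were in the tables, with a sum of 66.5 to 777 in ISC, 334 to 837 in Fused and 39.9 to 60.0 in Control libraries. Markers of bone also moved in Fused against Control, with a positive change in 9 of 9 tested genes and a list median of 2.51. That median was 0.44, over 5 genes, without the haemoglobin-rich libraries. The bone list correlated with LYZ at r = 0.80 over the 9 libraries and 0.62 over the 6 not rich in haemoglobin RNA. The part of these cells, bone cells included, in the LYZ result and in the list counts was not tested.

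The mean log2 value of the neutrophil list correlated across the 9 libraries with LYZ at r = 0.97, but with CD163 at 0.09, with CSF1R at 0.22, with MRC1 at -0.18 and with CD68 at 0.06. Over the 6 libraries not rich in haemoglobin RNA, its r with LYZ was also 0.97. LYZ also correlated with other lists, with r = 0.98 for lymphocytes and plasma cells, 0.95 for erythroid cells, 0.94 for the receptors and adaptors and 0.93 for dividing cells. For the scavenger receptor list r was 0.32 with LYZ, 0.98 with CSF1R, 0.89 with MRC1 and 0.77 with CD163. Without the 2 libraries farthest from the median of that list, r was 0.52 with LYZ, 0.92 with CSF1R, 0.61 with MRC1 and 0.09 with CD163, so that CD163 was then below LYZ and MRC1 close to it. Over the 6 libraries not rich in haemoglobin RNA, r was 0.26 with LYZ, 0.98 with CSF1R, 0.98 with MRC1 and 0.85 with CD163. These are descriptions over libraries that share group and scaling. Lymphatic and sinusoidal endothelium, which also makes MRC1, had a summed level over 10 of 10 listed genes of 448 to 1365 in ISC, 444 to 800 in Fused and 471 to 1102 in Control libraries, and its mean correlated with MRC1 at r = 0.67. LYVE1, STAB1 and STAB2 stand in both the scavenger and the lymphatic lists.

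**Figure D5:**
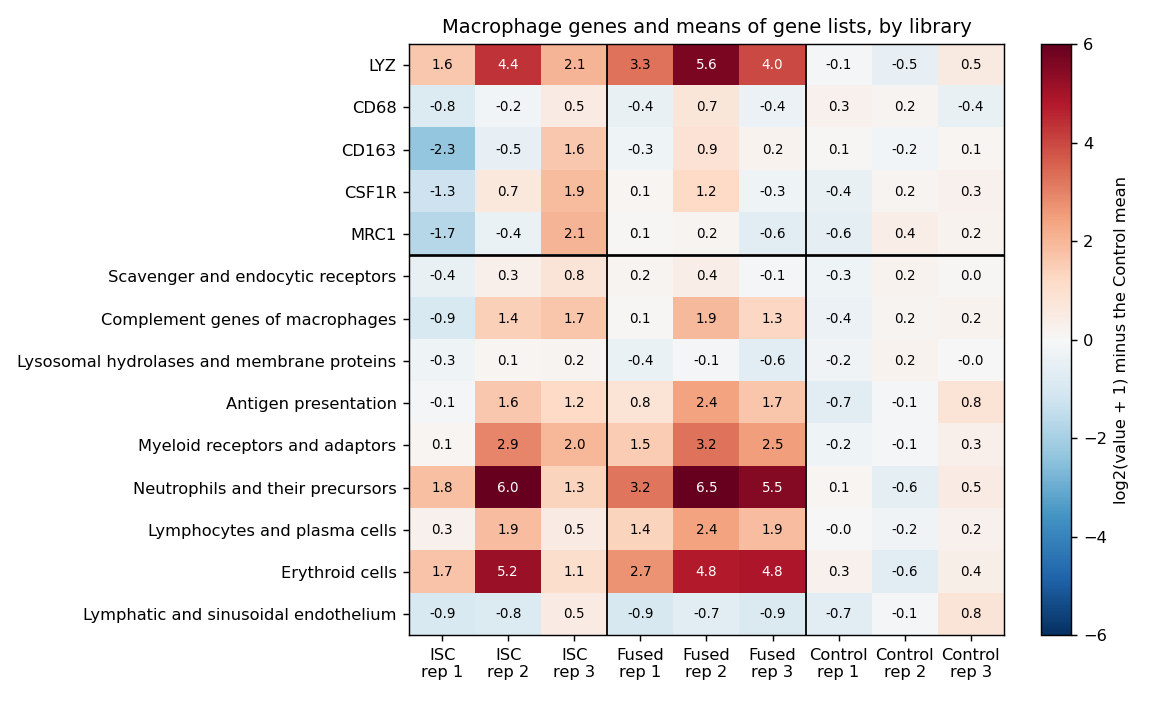
Heat map of log2(scaled read count + 1) minus the Control mean, for each macrophage gene and for the mean of each gene list, in the 9 libraries (columns). LYZ and the neutrophil, erythroid, and receptor and adaptor lists are highest in ISC replicate 2 and Fused replicates 2 and 3, while CD163, CSF1R and MRC1 are highest in ISC replicate 3 and lowest in ISC replicate 1.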

How the data were processed

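Per the labels' protocols, total RNA of ligamentum flavum was made into libraries with a directional kit. Per the submitters' processing notes TopHat was used; the series' design text names oryCun2 as its genome and Cufflinks for the analysis. For versions and for how reads and strands were counted, nothing is stated in the sources used here. In 3 tables the authors deposited the same signal per gene for all 9 libraries, named there as TMM, that is, read counts scaled by a factor of the library. They also deposited p-values and q-values. In all 9 libraries the values were whole multiples of the smallest value, taken as 1 read, within a tolerance of 1e-06. In Fused replicate 2 and ISC replicate 3 that smallest value was itself near 1 (1.0058 and 1.0032). Of 8020 rows with a locus identifier, 764 had a symbol in the RefSeq table.

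limma 3.58.1 (R 4.3.3) was fitted with a mean-variance trend to log2(value + 1), after leaving out genes that reached 1 in fewer than 3 of the 6 libraries compared. Calls are at a Benjamini-Hochberg adjusted p under 0.05 over all tested genes, two-sided; changes on this scale understate those of low genes. Alternatives were other pseudocounts (0.1 and 5), filters and scalings, array weights, a replicate block, all 9 libraries in 1 fit, edgeR 4.0.16 and DESeq2 1.42.0 on recovered reads, and leaving out libraries. The fit was tested on simulated data with known changes. Of 2-fold changes it recovered 7.46% in Fused against Control, 7.25% in ISC against Control and 0% in ISC against Fused. Of 4-fold changes it recovered 86.7%, 69.7% and 37.1% in the same order. Poisson intervals cover counting error only.

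The 5 genes, the gene lists and the tests were chosen with earlier results of these data known. Named genes are the 5 members, the 5 genes most like each, CSF1, IL34 and SPI1, and from each list up to 3 called genes with the largest change, or else those with the smallest p. A single gene that this rule takes is not reported here. Genes listed by name only, and those of ISC replicate 3 in the closing section, were chosen after their values were seen. No sequences were used here.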

Additional observations from a re-analysis of the deposited data

How the results depend on the processing

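Genes called in Fused against Control numbered 966, and 50 without the trend, 1878 with array weights, 25 with all 9 libraries in 1 fit, 1 without the haemoglobin-rich libraries, and 0 to 2050 over the leave-one-out fits. Members called there numbered 1, and 0 without the trend, with all 9 libraries or without the haemoglobin-rich libraries, with 0 to 1 over the leave-one-out fits. The adjusted p of LYZ was 0.0511 without the trend and 0.0516 with all 9 libraries; its log2 change was between 3.28 and 4.79 over the 19 alternatives. In ISC against Control 7 genes were called, and 4 with a pseudocount of 0.1, 14 with all 9 libraries, 228 by DESeq2 and 2 to 38 over the leave-one-out fits. DESeq2 called 1 member, and the other alternatives 0. In ISC against Fused 43 genes were called, and 79 with no filter, 74 with median centring, 0 without the trend (1557 at an unadjusted p under 0.05), 82 with array weights, 214 with all 9 libraries, 321 by DESeq2, 4 without the haemoglobin-rich libraries, an alternative chosen after seeing the data, and 0 to 29 over the leave-one-out fits. For CD68, CD163, CSF1R and MRC1, none of the alternatives gave a call in any comparison, and the sign of each changed under some. The cause of these shifts was not tested. Control values of LYZ rest on few reads, which limits the precision of its change.

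Replicate numbers were not taken to pair the libraries, since not every same-numbered pair correlated above 0.1: deviations of same-numbered libraries from their group means correlated between -0.11 and 0.05 in Fused and Control, between -0.10 and 0.17 in ISC and Control, and between -0.18 and 0.46 in ISC and Fused. Of 6 libraries, 2, 2 and 4 correlated best with their own number. With the replicate number as a block, 719 genes were called in Fused against Control, 3 in ISC against Control and 88 in ISC against Fused, where 1 member, LYZ, was then called (adjusted p = 0.0428).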

Other observations

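Among 10219 genes with a median value of 10 or more, ISC replicate 3 held the highest value of the 9 libraries for 17.9%. It did so for 3 of the 5 macrophage genes, 6 of 15 genes of the scavenger receptor list and 3 of 4 complement genes. The same held for 8 of 24 lysosomal genes, 3 of 17 receptors and adaptors, 2 of 11 activation genes, 1 of 10 transcription factors, 0 of 5 antigen presentation genes and 0 of 3 chemokine genes. Outside the macrophage lists it was highest for 4 of 6 synovial lining genes. The following genes were chosen after their values were seen. HMOX1, which breaks down haem, had 19.3, 109 and 1796 in ISC replicates 1, 2 and 3, 51.1, 203 and 67.8 in the 3 Fused libraries, and 24.5, 33.5 and 20.0 in the 3 Control libraries. VSIG4, a complement receptor of resident macrophages, had 5.36, 41.8 and 129 in ISC replicates 1, 2 and 3, 19.7, 27.2 and 17.5 in the 3 Fused libraries, and 22.6, 35.9 and 19.1 in the 3 Control libraries. STAB1, a scavenger receptor of macrophages and sinusoidal endothelium, had 93.3, 130 and 689 in ISC replicates 1, 2 and 3, 226, 122 and 119 in the 3 Fused libraries, and 110, 218 and 293 in the 3 Control libraries. HBB2 took 0.421% of the reads of ISC replicate 3, so this library was not among those rich in haemoglobin RNA. As 1 library of its group, it has no replicate check, and no test was made of these genes as a set.

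Osteoclasts, which arise from the same lineage, had 11 of 12 listed genes read, with CALCR at 0 in all 9 libraries. Their summed value was 1890 to 2861 in ISC, 1486 to 3464 in Fused and 1750 to 2000 in Control libraries. CTSK, a protease made by osteoclasts, gave 570 to 2439 of each sum, with 1494 to 1824 in Control libraries. In Fused against Control the list median was 2.03, with a positive change in 6 of 9 tested genes. CTSK and NFATC1 averaged lower in Fused (1015 and 62.6) than in Control libraries (1646 and 94.3). ACP5 and ITGB3 averaged higher in Fused (78.7 and 113) than in Control libraries (6.91 and 14.1), with 218 and 272 in Fused replicate 2. These genes were chosen after their values were seen. Of the 9, limma called 1 higher, the carbonic anhydrase CA2, beside 3.98% of all genes. CA2 had 79.3, 1484 and 31.1 in ISC replicates 1, 2 and 3 and 131, 911 and 1036 in the 3 Fused libraries. It was thus highest in the haemoglobin-rich libraries, and its cell source was not tested. The dendritic cell list, 9 of 10 genes, summed to between 99.7 and 172 in ISC, between 116 and 166 in Fused and between 128 and 191 in Control libraries.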
